A study of Rattus norvegicus with 6 samples.

Results

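The miR-28, miR-151 and miR-708 family comprised 6 of the 1289 miRNA rows in a small RNA count table from PC12 cells, a line derived from a rat adrenal medulla tumour that is widely used as a neuron-like model. The rows were rno-miR-28-5p, rno-miR-28-3p, rno-miR-151-5p, rno-miR-151-3p, rno-miR-708-5p and rno-miR-708-3p, and they were taken by name. The family itself was selected on the measured EN against EC values of miR-28, a lower 5p arm and a shifted arm ratio, so all differences between groups are given here as descriptions and no test is offered in their support. There were 6 libraries, 3 labelled EC and 3 labelled EN. What EC and EN stand for is not stated in the labels, nor is a dose or time. The series title concerns exosomes of endothelial cells engineered with Netrin-1, a secreted axon guidance protein, and peripheral nerve repair. No label says that replicates came from separate cultures, so the spread between them may be technical.

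A miRNA hairpin is cut into a 5p and a 3p arm, and usually 1 arm is loaded preferentially into Argonaute while the other is degraded. The loaded arm finds its targets mainly through the seed, bases 2 to 8. The 3 hairpins are paralogs known to lie in introns of adhesion-related genes: miR-28 in Lpp, a LIM-domain adaptor of focal adhesions, miR-151 in Ptk2, which encodes focal adhesion kinase, and miR-708 in Tenm4, a teneurin of developing neurons. Both arms of miR-28 have been described as functional with different targets, miR-151 has been studied with Ptk2 in the migration of liver cancer cells, and miR-708 has been described as induced together with its host gene under endoplasmic reticulum stress. In the RefSeq gene table (GRCr8), Mir28 lies inside Lpp, Mir151 inside Ptk2 and Mir708 inside Tenm4. Mir708 and Tenm4 are on the same strand there.

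The mature sequences show which arms can share targets, so they are given 5′ to 3′ with the seed in capitals (RefSeq, GRCr8, 4 of the 6 rows matched).
rno-miR-28-5p: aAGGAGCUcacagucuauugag
rno-miR-708-5p: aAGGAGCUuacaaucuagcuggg
rno-miR-28-3p: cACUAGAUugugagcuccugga
rno-miR-708-3p: cAACUAGAcugugagcuucuag
The miR-28 arms come from the minus strand of chromosome 11 and the miR-708 arms from the plus strand of chromosome 1. The rows rno-miR-151-5p and rno-miR-151-3p are given by name.

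MiR-28-5p and miR-708-5p carry the same seed, AGGAGCU. Aligned without gaps from their first base, they are identical at 16 of 22 positions. The substitutions from miR-28-5p to miR-708-5p, counted from the 5′ end of miR-28-5p, are C9U, G13A, U18G, U19C, G20U and A21G, all outside the seed. The 3p arms do not share a seed. MiR-708-3p is shifted by 1 base against miR-28-3p, and in that register 17 of 21 positions are identical, with the substitutions C1A, U8C, C17U and G20A counted from the 5′ end of miR-28-3p. The longest stretch of miR-28-5p that is Watson-Crick complementary to its own 3p arm is AGGAGCUCACA, 11 bases from position 2 to position 12, which contains the whole seed. Among the 530 known rat rows with a RefSeq mature sequence, miR-28-5p and miR-708-5p were the only rows with the AGGAGCU seed. The seeds of miR-28-3p and miR-708-3p were found in no other row.

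The libraries held between 4521694 and 6554639 miRNA counts, with the 3 lowest totals in EN. The authors' RPM values rest on a larger library total, of which miRNA counts made up 30.9 to 32.6 percent in EC and 25.0 to 26.9 percent in EN. Levels below are therefore given mainly as CPM, a row's counts relative to the miRNA total of its library, after TMM scaling, a trimmed-mean correction of library size, and RPM is named where used. As a check of the cell label, the 6 neuroendocrine or chromaffin markers summed to 993 to 1158 CPM (EC) and 1255 to 1512 CPM (EN). Nearly all of both sums was miR-7a-5p, at 1055 ± 80.2 and 1343 ± 131 CPM (SD, n = 3). MiR-375-3p stood at only 2.65 ± 0.61 and 2.75 ± 0.46 CPM, and miR-182 at 12.6 ± 2.40 and 13.9 ± 0.85 CPM. Lower means in EN were seen for miR-183-5p, at 5.58 ± 5.70 and 1.73 ± 2.99 CPM, and miR-96-5p, at 3.68 ± 0.29 and 2.13 ± 0.93 CPM. MiR-7b had 13 counts in all, and none of these markers was called by the edgeR test described below. The endothelial marker miR-126a-3p was present at 1049 ± 37.0 and 1103 ± 84.4 CPM in EC and EN, and its other arm, miR-126a-5p, at 60.3 ± 5.20 and 33.2 ± 5.55 CPM (SD, n = 3). MiR-126a-5p was called lower in EN, at a log2 fold change of -0.86, by the edgeR test described below. The 2 endothelial markers summed to 1064 to 1144 and 1086 to 1229 CPM. The 6 blood markers summed to 94.5 to 127 CPM (EC) and 156 to 179 CPM (EN). Most of both sums was miR-150-5p, at 99.2 ± 18.1 and 141 ± 16.9 CPM (SD, n = 3), with a log2 fold change of 0.51 that was not called. MiR-451-5p, a smaller part at 8.10 ± 2.60 and 23.3 ± 6.26 CPM (SD, n = 3), was called higher in EN, at a log2 fold change of 1.52. MiR-223-3p had 12 counts and miR-144-3p 2 counts in all. MiR-142-3p, at 1.6 ± 0.53 and 1.11 ± 0.60 CPM, and miR-142-5p, at 0.82 ± 0.31 and 0.23 ± 0.23 CPM, had lower means in EN and were too low to be tested. The 4 muscle markers summed to 1.76 to 30.6 and 1.75 to 2.41 CPM, with miR-1-3p at 1 count in all, and the liver marker miR-122-5p stood at 5.96 to 9.74 and 8.23 to 14.4 CPM. The part of these cell types in the family's values was not tested.

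The 6 arms differed widely in level. MiR-151-5p was the most abundant, 48th among the 584 known rat rows by mean CPM, followed by miR-28-5p at 67th, miR-151-3p at 99th, miR-28-3p at 158th, miR-708-5p at 219th and miR-708-3p at 459th. The same order held in both groups, and the library ranges of neighbours in that order did not overlap within either group. The 4 arms with a RefSeq sequence are 22 or 23 bases long, and no length correction was made. How evenly different sequences were captured was not tested, so the order is one of counts. The family took 0.602 ± 0.026 percent (SD, n = 3) of all miRNA counts in EC, and in EN it took 0.456 ± 0.012 percent. MiR-151-5p alone made up 62.7 ± 2.10 percent of the family's counts in EC and 64.7 ± 0.62 percent in EN.

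**Figure D1:**
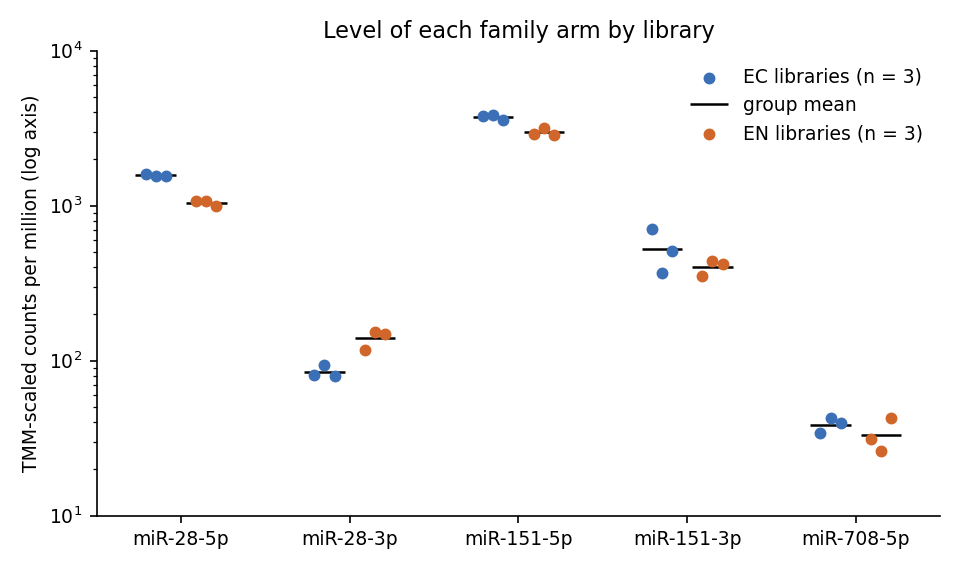
Level of each of the 5 more abundant family arms (horizontal axis) in TMM-scaled CPM on a log axis, with 1 point per library, EC in blue and EN in orange, and a bar at the group mean. The 3 EN points lie below all EC points for miR-28-5p and miR-151-5p and above them for miR-28-3p, while the groups overlap for miR-151-3p and miR-708-5p.

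MiR-28-5p, the abundant arm and the main carrier of the AGGAGCU seed, was lower in EN. The EC libraries had 1614, 1553 and 1562 CPM and the EN libraries 1067, 1068 and 994 CPM. The groups did not overlap, and each was tight, with a coefficient of variation of 2.07 percent in EC and 4.09 percent in EN. The log2 fold change of EN against EC was -0.60 (SE 0.10). In RNA pooled from many cells, less of a miRNA per cell and fewer cells that make it cannot be told apart.

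MiR-28-3p, the arm from the opposite side of the same hairpin, had the opposite sign. The EC libraries had 81.1, 93.3 and 80.2 CPM and the EN libraries 118, 153 and 148 CPM, again without overlap, with a log2 fold change of 0.72 (SE 0.16). Its raw counts were also higher in every EN library, at 640, 671 and 677 against 525, 584 and 525 in EC, although the EN libraries were smaller. On the authors' RPM scale both arms kept these signs, as miR-28-5p went from 507 ± 23.9 to 267 ± 18.8 and miR-28-3p from 27.3 ± 2.97 to 35.7 ± 3.19 (SD, n = 3).

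MiR-151-5p, the most abundant arm of the family, was lower in EN by a smaller amount. The EC libraries had 3811, 3834 and 3586 CPM and the EN libraries 2904, 3163 and 2855 CPM, without overlap, with a log2 fold change of -0.33 (SE 0.09). MiR-151-3p varied far more between EC libraries, at 706, 370 and 513 CPM, than between EN libraries, at 351, 443 and 421 CPM. EC replicate 1 was the highest and EC replicate 2 fell among the EN values, so the groups overlapped, and the log2 fold change was -0.39 (SE 0.24). Without EC replicate 1 it was -0.12, and without EC replicate 2 it was -0.57. The coefficient of variation of miR-151-3p in EC was 31.9 percent, against 3.66 percent for miR-151-5p in the same libraries.

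MiR-708-5p, the seed partner of miR-28-5p, was a minor arm. The EC libraries had 34, 42.8 and 39.4 CPM and the EN libraries 31.1, 26.1 and 42.7 CPM, with a log2 fold change of -0.22 (SE 0.21). The groups overlapped because EN replicate 3 lay within the EC range. Without that library the log2 fold change was -0.44, and without EN replicate 2, the lowest, it was -0.04. On the RPM scale the groups did not overlap, at 11.2, 14 and 12.2 in EC and 8.40, 6.30 and 10.9 in EN. MiR-708-3p was close to the limit of detection, with 7, 4 and 1 counts in EC and 0, 0 and 2 in EN. It did not pass the filter on low counts and was not tested, and a difference could not be shown at this depth.

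Across all rows, the quasi-likelihood test of edgeR, adjusted by Benjamini-Hochberg at 0.05, called 25 of 628 rows, or 3.98 percent, of which 12, or 1.91 percent of rows, were lower in EN. Of the 6 family rows, 5 were tested and 1, miR-28-5p, was called, as a lower row. Since this contrast chose the family, nothing is read from that count. MiR-28-5p was not called without EC replicate 1, EC replicate 3, EN replicate 2 or EN replicate 3, at log2 fold changes of -0.57, -0.59, -0.58 and -0.56. MiR-28-3p, not called with all libraries, was called without EC replicate 2 at 0.82 and without EN replicate 1 at 0.83. Of the 5 tested family rows, 4 had negative and 1 a positive log2 fold change, with a median of -0.33 beside a median of 0.02 over all rows. The CPM values of EC and EN did not overlap in 3 of the 5 rows, miR-28-5p, miR-28-3p and miR-151-5p, where 29.6 percent of all tested rows had no overlap. On the authors' RPM none of the 5 rows overlapped, miR-151-3p included, at 121 to 232 RPM in EC and 94.9 to 108 RPM in EN, where 39.6 percent of all tested rows had no overlap.

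**Figure D2:**
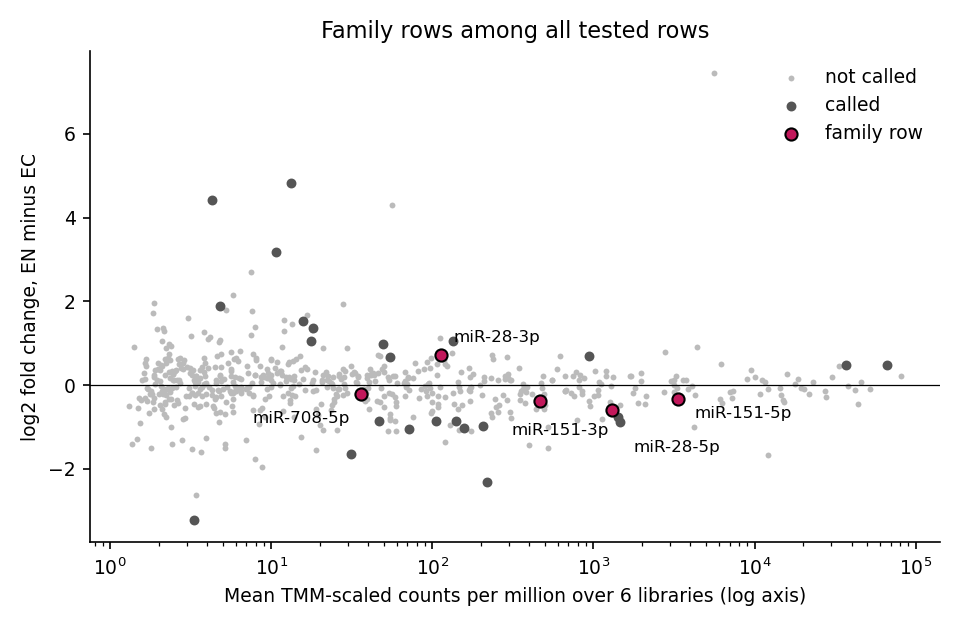
Log2 fold change of EN against EC (vertical axis) over mean TMM-scaled CPM (horizontal, log axis) for the 628 tested rows, with called rows in dark grey and the 5 tested family rows in magenta. MiR-28-5p and miR-151-5p are abundant rows a little below 0, and miR-28-3p sits above 0 at a level of about 112 CPM.

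The direction of all 5 tested arms was the same under every scaling and tool that was run, while the size depended on the library total and on the rows fitted. When the total behind the RPM values replaced the sum of miRNA counts, the median over all tested rows shifted to -0.30 from 0.02. MiR-28-5p then stood at -0.93, miR-151-5p at -0.67, miR-151-3p at -0.72, miR-708-5p at -0.54 and miR-28-3p at 0.38. Relative to the median of all rows the values were nearly the same as before: miR-28-5p lay at -0.62 under both scalings and miR-28-3p at 0.70 and 0.69. MiR-151-5p lay at -0.35 and -0.36 relative to that median. These relative values did move in a fit of the known rat rows only. There miR-28-5p lay at -0.53, miR-28-3p at 0.79 and miR-151-5p at -0.26 relative to the median of the fitted rows.

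**Figure D3:**
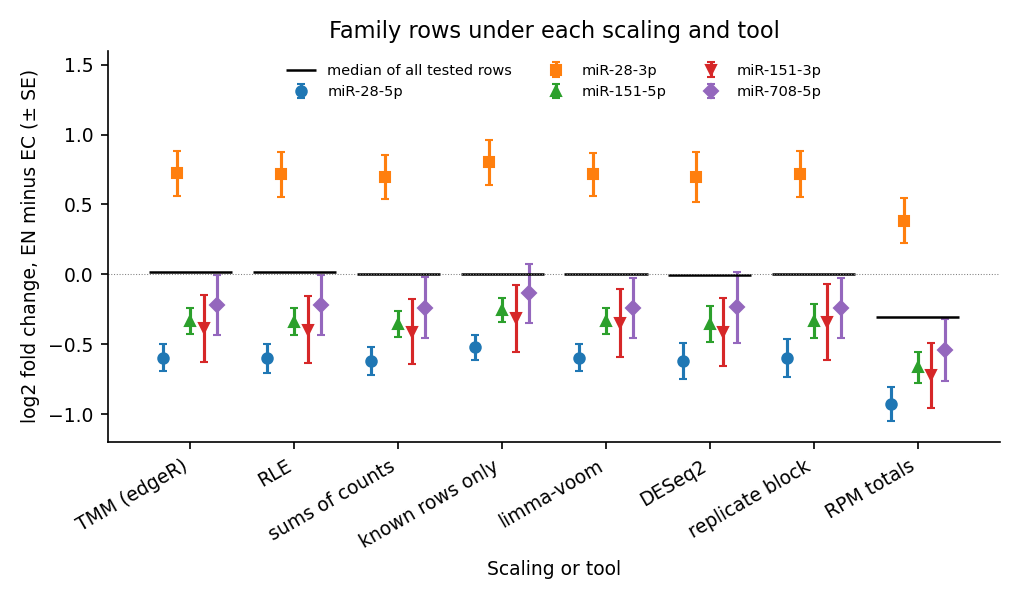
Log2 fold change of EN against EC (vertical axis, bars are ± SE) of the 5 tested family arms under each scaling or tool on the horizontal axis, with a black line at the median of all tested rows in each fit. The order of miR-28-3p above and miR-28-5p below the other arms is the same in each, and all values shift down with the RPM totals.

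The ratio of both arms within a library needs no scaling between libraries. For miR-28 the ratio of 5p to 3p counts was 19.9, 16.7 and 19.5 in EC and 9.01, 6.96 and 6.70 in EN, so that every EN library lay below every EC library. The 3p arm accordingly made up 5.11 ± 0.48 percent (SD, n = 3) of miR-28 counts in EC, and in EN it made up 11.8 ± 1.62 percent. The nearest libraries of both groups were EC replicate 2 at 5.66 percent, with a 95 percent Wilson interval of 5.23 to 6.13, and EN replicate 1 at 9.99 percent, with an interval of 9.28 to 10.7. Such intervals treat each read as a separate count and do not cover variation between libraries. The reads carry no molecular identifiers, so repeated copies of a molecule were not recognised. The mean log2 ratio, with 1 added to each count, was 4.22 in EC and 2.90 in EN, a difference of -1.31 (SE 0.19).

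MiR-151 showed no such shift in its mean. Its ratio of 5p to 3p counts was 5.40, 10.4 and 7 in EC and 8.27, 7.14 and 6.78 in EN. All EN libraries lay inside the EC range, and the difference of the mean log2 ratio was 0.01 (SE 0.27), ranging from -0.21 without EC replicate 1 to 0.26 without EC replicate 2. A difference this close to 0 with this SE does not show that the ratio was equal in both groups. The 3p arm made up 15.6 percent of miR-151 counts in EC replicate 1 (95 percent Wilson interval 15.2 to 16.0) and 8.79 percent in EC replicate 2 (8.46 to 9.14), a spread within 1 group that was much wider than counting error.

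For miR-708 the 3p arm contributed 12 of 758 counts over the EC libraries and 2 of 479 over the EN libraries. In single libraries its share was 3.08, 1.47 and 0.386 percent in EC, with 95 percent Wilson intervals of 1.5 to 6.23, 0.573 to 3.72 and 0.0682 to 2.15. It was 1.02 percent in EN replicate 3, with an interval of 0.279 to 3.63. In EN replicate 1 it was 0 of 168 counts, with an interval of 0 to 2.24 percent. In EN replicate 2 it was 0 of 114, with an interval of 0 to 3.26 percent. At these counts no difference between the groups could be detected. The 5p arm was the abundant arm in all 6 libraries for each of the 3 hairpins, as it was in both groups for 67 of the 107 miRNAs with both arms tested.

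**Figure D4:**
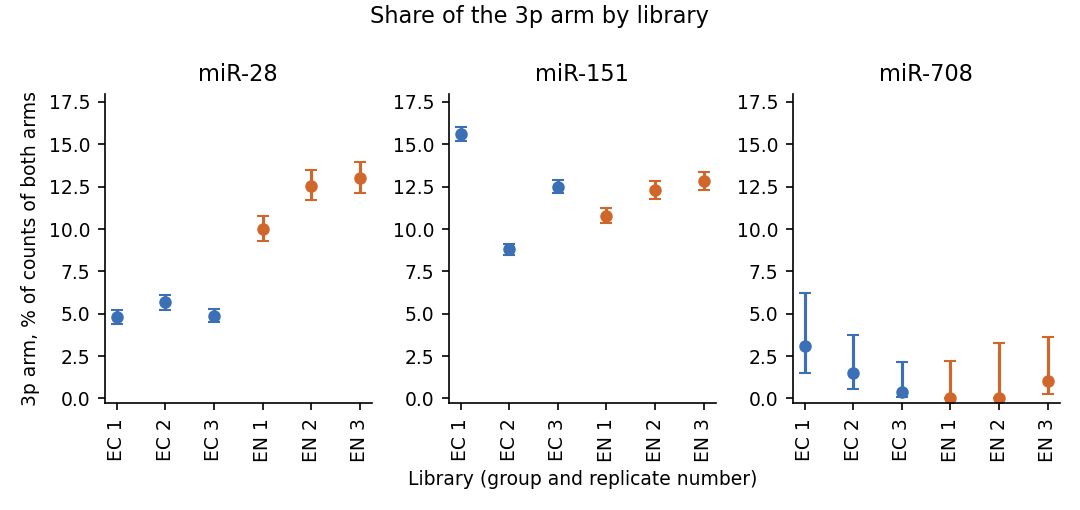
Share of the 3p arm in the counts of both arms (vertical axis, percent) in each library (horizontal axis) for miR-28, miR-151 and miR-708, with EC in blue, EN in orange and bars for 95 percent Wilson intervals. The EN libraries of miR-28 all lie above its EC libraries, those of miR-151 lie within the EC range, and the intervals of miR-708 overlap throughout.

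Arm use was compared over 107 miRNAs whose arms each had at least 20 counts on average. By limma with Benjamini-Hochberg adjustment, 6 pairs, or 5.61 percent, were called. MiR-28 was 1 of them and miR-151 was not, and since the arm ratio of miR-28 was among the values that chose the family, nothing is read from that count. By absolute size the shift of miR-28 was 7th and that of miR-151 105th of 107, beside a median absolute difference of 0.38. The other called pairs were miR-212, an activity-induced miRNA, at -2.28 (SE 0.23), let-7i at 2.22 (SE 0.34), miR-29c at 0.90 (SE 0.18), miR-34b at -0.89 (SE 0.17) and 1 newly named miRNA at -2.98 (SE 0.51). The call of miR-28 was lost without EC replicate 1, EC replicate 3, EN replicate 2 or EN replicate 3, at differences of -1.27, -1.28, -1.26 and -1.23. Both arms of a pair lay apart between the groups and in opposite directions in 3 of the 107 pairs, or 2.80 percent: miR-28 and miR-212 with a lower 5p and a higher 3p arm in EN, and miR-29c with the reverse. For miR-28, neither the rank by size nor a place among these 3 pairs is a separate result, since its values chose the family.

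**Figure D5:**
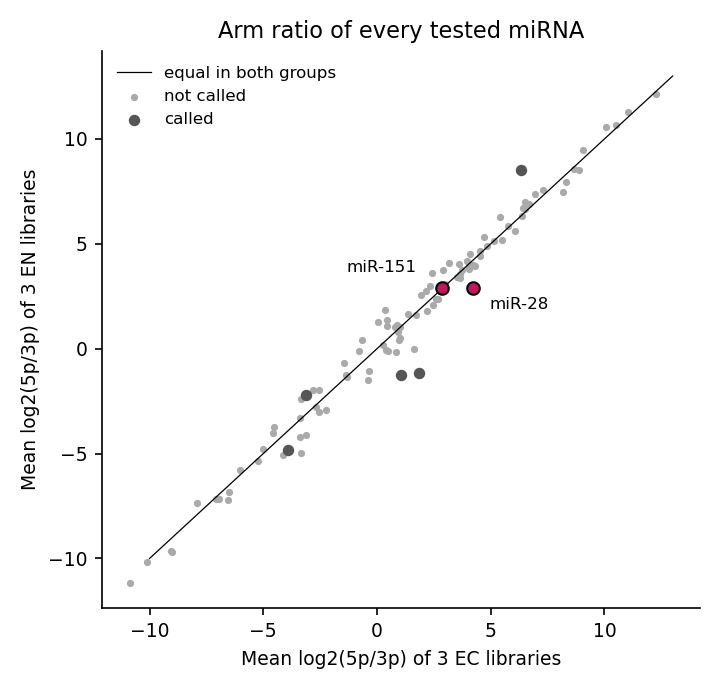
Mean log2 ratio of 5p to 3p counts in EN (vertical axis) against EC (horizontal axis) for 107 miRNAs, with called pairs in dark grey, miR-28 and miR-151 in magenta and a line of equality. MiR-151 lies on the line at 2.87 in EC and 2.88 in EN, and miR-28 lies below it at 4.22 and 2.90.

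Set against its paralog in the same library, miR-28-5p was lower relative to miR-151-5p in EN. This follows from the fold changes given above, with the miR-28-5p values that chose the family, and is no separate result. The ratios below were not compared with those of other pairs of rows. MiR-151-5p counts were 2.37 ± 0.09 times those of miR-28-5p in EC and 2.85 ± 0.12 times in EN (SD, n = 3), with ranges of 2.30 to 2.47 and 2.72 to 2.96 that did not overlap. Between the 3p arms the relation had the opposite direction, with miR-151-3p counts at 3.96 to 8.70 times those of miR-28-3p in EC and 2.84 to 2.96 times in EN. The summed level of the AGGAGCU seed, miR-28-5p plus miR-708-5p, was 1615 ± 28.3 CPM over the EC libraries and 1076 ± 34.6 CPM over the EN libraries. MiR-708-5p supplied 2.40 ± 0.31 percent of that pool in EC and 3.11 ± 0.90 percent in EN, so the level of the shared seed was almost wholly that of miR-28-5p in every library.

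A further miRNA gene, Mir151b, overlaps Mir151 in the RefSeq table. The rows listed as miR-3586 were taken as its products, without a mature sequence to check this. They are counted apart from the miR-151 rows. Without a stated strand rule it cannot be told whether reads of either gene were counted in rows of the other. MiR-3586-5p had 1 count in all. MiR-3586-3p had 26.9, 26.7 and 30.1 CPM in the EC and 21.8, 23.1 and 15.1 CPM in the EN libraries, without overlap, with a log2 fold change of -0.48 (SE 0.19) that was not called. Its counts amounted to 0.529 to 0.839 percent of those of miR-151-5p and 3.59 to 7.21 percent of those of miR-151-3p. Adding them to either arm, an alternative chosen after seeing the data, left miR-151-5p at -0.33 and miR-151-3p at -0.39.

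The known rows most like each family arm were found by the root mean square difference of centred log2 CPM over the 6 libraries, among 253 other known rows that averaged at least 100 counts. For miR-28-5p these were miR-1843a-3p at 0.095, miR-24-1-5p at 0.097, miR-30b-5p at 0.106 and miR-17-5p at 0.107, beside a median of 0.345 over all candidates. Their log2 fold changes were -0.56, -0.60, -0.43 and -0.58, none of them called, beside -0.60 for miR-28-5p. For miR-28-3p they were miR-598-3p at 0.126, miR-128-3p at 0.142, miR-218b at 0.144 and miR-222-3p at 0.145, each with a positive log2 fold change between 0.48 and 0.69. For miR-151-5p they were miR-27b-5p at 0.055, miR-30d-3p at 0.061, let-7d-3p at 0.064 and miR-130a-5p at 0.076, with log2 fold changes from -0.26 to -0.39. For miR-151-3p they were miR-30d-5p at 0.083, miR-24-3p at 0.115, miR-26b-3p at 0.158 and miR-199a-5p at 0.177. For miR-708-5p they were miR-503-3p at 0.161, miR-101b-3p at 0.181, miR-345-5p at 0.185 and miR-322-5p at 0.187. Because the rows were picked for likeness over the same 6 libraries, a similar EN against EC change is largely built in and is no separate result. No arm of the family was among the 4 most like rows of any other arm of it.

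Other miRNAs inside genes that the RefSeq table annotates as protein-coding were taken as rows with at least 1 gene wholly within such a host on the same strand. In 7 of these rows the host, Mir100hgl or Mir9-2hg, is by its symbol a miRNA host gene. In 9 rows the same mature miRNA also comes from a gene outside such a host, so that its value cannot be assigned to the host. There were 184 rows in all, and for 36 further rows the strand of the host was not in the tables used. Of 139 tested, 6 were called lower and 3 higher in EN and 130 were not called, with a median log2 fold change of -0.13. The 4 most abundant, none of them called, were miR-24-3p, 1 of those 9 rows, with 1 of its 2 genes inside Aopep, at -0.45 (SE 0.23), miR-191a-5p (Dalrd3) at -0.02 (SE 0.08), miR-99b-5p (Spaca6) at 0.47 (SE 0.13) and miR-204-5p (Trpm3) at 0.20 (SE 0.24) on the log2 scale. MiR-151-5p at -0.33 and miR-28-5p at -0.60 thus lay on the lower side of this list's median, and miR-28-3p at 0.72 on the higher side, each within the range of the list's called rows, which ran from -1.05 to 1.04. The called rows are named after their values were seen. Lower in EN were miR-190a-5p (Tln2) at -1.05 (SE 0.22), miR-188-5p (Clcn5) at -1.02 and miR-32-5p (Tmem245) at -0.98. So were miR-126a-5p (Egfl7) at -0.86, miR-338-3p (Aatk) at -0.85 and miR-106b-5p (Mcm7) at -0.85. Higher were miR-128-3p (R3hdm1 and Arpp21) at 0.69 (SE 0.10), miR-139-5p (Pde2a) at 0.98 and miR-219b (Cercam) at 1.04.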

How the data were processed

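Small RNA libraries of PC12 cells, 3 EC and 3 EN, were prepared with a TruSeq kit from RNA extracted with Trizol, per the labels' protocols. The authors deposited whole-number read counts per mature miRNA and library. They also deposited RPM values, which equal the count divided by 1 scaling total per library within 0.0015 in every row. Group means of both were deposited too and were not used. HISAT2 2.0.5 and Rnor 6.0 appear in the submitters' processing notes. Not given in the sources used here are the counter, the annotation of miRNAs, and how strand and multiply matching reads were handled.

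The family was proposed, and its lists and tests were chosen, with earlier results of these data known. Counts of all 1289 rows (584 known, 705 newly named) were fitted with edgeR 4.0.16 in R 4.3.3: filterByExpr, TMM factors, robust quasi-likelihood test, Benjamini-Hochberg adjustment, threshold 0.05. Each SE was taken as the size of the log2 fold change over the square root of F. Arm use was fitted with limma 3.58.1 on log2((5p + 1)/(3p + 1)). All family rows are named, with the 4 rows most like each, the 4 most abundant hosted rows and the called hosted rows. Both tests were first tested on simulated data. DESeq2 1.42.0, limma-voom, other scalings and filters, a replicate block and the omission of each library were alternatives. RefSeq tables (GRCr8) gave sequences and host genes. Their assembly differs from Rnor 6.0, so no coordinates are given. Figures were drawn with matplotlib 3.10.9, and tables and intervals made with scipy 1.17.1 and pandas 2.3.3 in Python 3.11.15. Same-numbered libraries were not treated as pairs, since the labels state no shared batch. In the data their deviations correlated at 0.076, -0.052 and 0.007, and those of differently numbered EC and EN libraries at -0.165 to 0.14.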

Additional observations from a re-analysis of the deposited data

How the results depend on the processing

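Of the 7 family values (5 fold changes and 2 arm ratios), 6 kept their direction in every alternative. The arm ratio of miR-151, near 0, reversed in 3 fits that left out 1 library. MiR-28-5p ranged from -0.93 to -0.52 on the log2 scale and passed in 12 of 17 alternatives. In the fit with a replicate block it did not pass, at -0.60, and 2 rows were called in all, 1 higher and 1 lower. The arm ratio of miR-28 passed in 8 of 12 alternatives, the replicate block among them, where its difference was -1.31. The tallies of miR-28-5p and of the miR-28 arm ratio include the fits that added miR-3586-3p to a miR-151 arm. Those fits leave the miR-28 counts as they were, so their passes carry no information. Both values chose the family, so their tallies describe dependence on the processing only and lend them no support. Among the 6 fits that left out 1 library, miR-28-5p and the miR-28 arm ratio each passed in 2. MiR-28-3p passed without a filter (0.70), with a mean of 10 CPM or more (0.70), with DESeq2 (0.70) and without newly named rows (0.80). MiR-151-5p passed with library totals implied by RPM (-0.67) and with DESeq2 (-0.36). Over all rows there were 25 calls, 101 with library totals implied by RPM (13 higher, 88 lower), 44 without a filter (21 higher, 23 lower) and 83 with DESeq2 (34 higher, 49 lower).

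Without 1 library the calls over all rows ranged from 2 to 39 and the arm calls from 1 to 14. MiR-28-5p ranged from -0.62 to -0.56, miR-28-3p from 0.68 to 0.83, miR-151-5p from -0.35 to -0.29, miR-151-3p from -0.57 to -0.12 and miR-708-5p from -0.44 to -0.04. The arm ratio difference of miR-28 ranged from -1.45 to -1.23 and that of miR-151 from -0.21 to 0.26. Their cause was not tested. Depth limits miR-708-3p, at 7 counts or fewer per library.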
